A study of Gossypium hirsutum with 6 samples.

Results

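Aquaporins are membrane channels that let water, and in some classes small neutral solutes, cross a membrane down its gradient. In plants they fall into several classes. PIP proteins lie in the plasma membrane, TIP proteins in the tonoplast (the membrane of the vacuole), NIP proteins resemble nodulin 26 of legume root nodules and often carry boric acid or other metalloids, and SIP proteins are small, basic channels of the endoplasmic reticulum. In growing seedlings PIP and TIP channels let water cross these membranes, as when the vacuoles of expanding cells fill.

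The cotton genes described here are the rows of the deposited expression table whose matched Arabidopsis locus is 1 of 32 PIP, TIP, NIP and SIP loci. There are 117 such genes (57 PIP, 31 TIP, 20 NIP and 9 SIP) among 70478 in the table. They match 26 of the 32 loci, and no gene was matched to the other 6. The match gives each gene its name, so that 22 genes are called copies of PIP1-4 and 12 copies of PIP2-2, and cotton genes with different roles may share a name. Names are those of the Arabidopsis protein, written PIP1-4 for the channel also spelled with a semicolon. Upland cotton is a tetraploid with an A and a D subgenome, which the gene IDs carry: 55 copies have an A ID, 58 a D ID and 4 a scaffold ID. Near-identical copies can share reads, and how the authors' tools divided such reads between copies is not given in the sources used here, so that differences between close copies are uncertain.

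The seedlings were wild-type Gossypium hirsutum of the line CCRI24. They were grown on MS medium for 4 d and then moved for 24 h to MS medium that held either the solvent DMSO or 5 μM AZD (AZD8055, an inhibitor of the TOR kinase that binds where ATP does), and are labelled as 5 d old. RNA of seedlings was sequenced in 3 libraries per group, which the study calls biological repeats. The values are FPKM (fragments per kilobase of transcript, scaled to the fragments mapped in each library), so that levels of different genes can be set side by side per length. Genes that averaged 0.5 FPKM or more across all 6 libraries entered limma on log2(FPKM + 0.5), and a copy is called higher or lower at a Benjamini-Hochberg adjusted p under 0.05 over all 43158 tested genes. The 0.5 FPKM make the fold changes of low genes smaller than the ratio of their FPKM. Signs follow the sample labels. The fold changes tabulated in the study for other genes carry the opposite sign, and for this reason each library is called by its label below. Were the labels exchanged, every direction given here would turn. A counterpart is a copy of the same locus on the same-numbered chromosome of the other subgenome, paired by ID and level and not by sequence. Where 3 values of a group are given, they are those of its replicates 1, 2 and 3.

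Of the 117 copies, 77 passed the filter on low values, 40 did not, and 16 of these 40 were listed at 0 in every library. The copies matched to TIP5-1 and NIP4-1 (pollen channels in Arabidopsis), PIP1-2 and PIP1-5 were listed at 0 in every library. The copies of NIP7-1, a boric acid channel of Arabidopsis anthers, and of NIP1-1 all stayed under the filter. The 16 genes of the root marker list that the table holds were found unevenly: in DMSO replicate 1, 15 of these markers were above 0, against 8 to 11 in each of the other 5 libraries. That library also stood apart from the other libraries labelled DMSO on the second principal component of all tested genes (at 104, against −52.1 and −45.3). Summed over 61 copies of photosynthetic tissue markers, the FPKM ran from 18194 to 38427 in the DMSO-labelled libraries and from 66890 to 75019 in those labelled AZD, and 21 of the 51 tested copies were higher and 1 was lower (beside 1.89% and 2.8% of all tested genes). The 92 root marker copies summed to between 30.3 and 61.2 FPKM and to between 25.0 and 37.5 FPKM. The part of these differences in the aquaporin results was not tested, and in RNA of seedlings fewer cells of a type and less RNA per cell cannot be told apart.

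Plasma membrane aquaporins (PIP), which were 45 of the 77 tested copies, made up 6 of the 8 copies that passed the test. These 6 were lower in the AZD-labelled libraries (13.3% of the 45, beside 2.8% of all tested genes). Of the 77 tested aquaporin copies, 7 were lower (9.09%, beside 2.8% of all tested genes) and 1 was higher (1.3%, beside 1.89%), where 4.69% of all tested genes were called in either direction. By class, 1 of 19 PIP1 copies, 5 of 26 PIP2 copies and 1 of 5 NIP copies were lower, 1 of 7 SIP copies was higher, and none of 20 TIP copies was called (limma, with none of the 20 at an unadjusted p under 0.05). The median log2 fold change was −0.76 for PIP1, −0.66 for PIP2, −0.16 for TIP1, −0.30 for TIP2, 0.45 for the 2 tested copies of other TIP loci, −0.35 for NIP and −0.13 for SIP, and those of TIP1 and TIP2 changed sign when single libraries were left out (−0.29 to 0.17 and −1.10 to 0.27). It was −0.35 over all 77 copies and −0.01 over all tested genes. The log2 fold change lay below −1 in 21 copies and above 1 in 0, which 5.33% and 3.59% of all tested genes did. The groups did not overlap in 15 copies that were lower (19.5%, beside 15.5% of all tested genes) and in 5 that were higher (6.49%, beside 14.5%). With DMSO replicates 1, 2 and 3 left out in turn, 14, 7 and 2 copies were lower. With AZD replicates 1, 2 and 3 left out in turn, 1, 1 and 3 copies were lower. Over all tested genes, 1208 were lower with all libraries, and 1589, 692 and 267 without DMSO replicates 1, 2 and 3 in turn. Without AZD replicates 1, 2 and 3 in turn, 145, 149 and 190 genes were lower. The fits with 1 to 3 lower aquaporin copies were thus also those with the fewest lower genes. A copy was higher without DMSO replicate 1 (1 copy) or 2 (1 copy), and none was without any other library (limma, with 4 to 7 higher at an unadjusted p under 0.05).

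**Figure D1:**
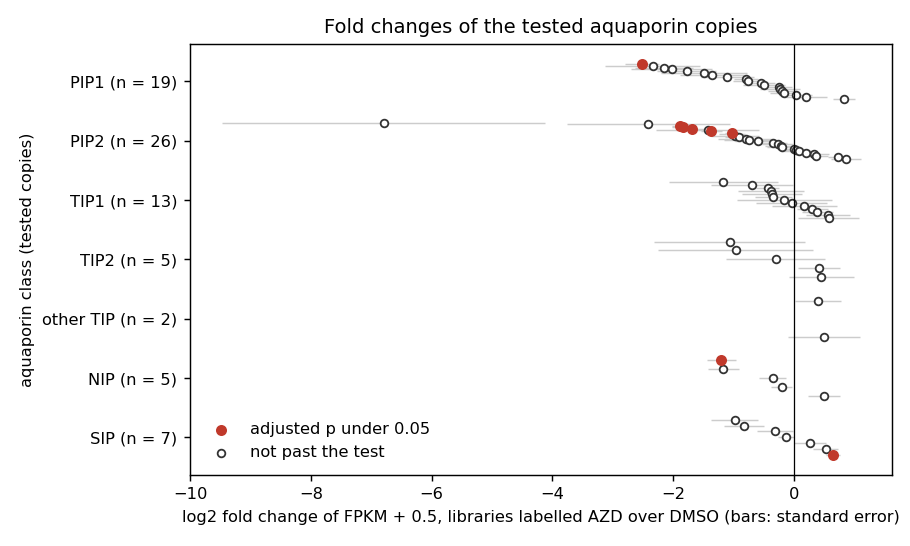
Log2 fold change of FPKM + 0.5 (libraries labelled AZD over DMSO) of each of the 77 tested aquaporin copies, by class, with its standard error as a bar. Filled points are the 8 copies past the test, of which 7 lie left of 0, and the point at −6.80 is PIP2-2 Gh_D12G0218, described in the text.

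PIP2 proteins form water channels on their own, and in maize they also bring PIP1 proteins to the plasma membrane. PIP2-1, which carries water and hydrogen peroxide in Arabidopsis, had 1 copy matched to its locus AT3G53420, Gh_D09G1409. Its level was 16.5, 19.5 and 15.5 FPKM in DMSO replicates 1, 2 and 3, against 4.52, 3.99 and 4.35 FPKM in AZD replicates 1, 2 and 3. The groups lay far apart relative to their spread, at 17.2 ± 2.05 and 4.29 ± 0.273 FPKM (SD, n = 3), and limma gave a log2 fold change of −1.88 (with a standard error of 0.13, adjusted p = 0.00336). This copy was the only called aquaporin that passed with any single library left out (adjusted p = 0.00761 to 0.0300).

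Gh_A09G1405, a copy of PIP2-2 (AT2G37170), which supports water uptake by Arabidopsis roots, stood at 57.6, 57.0 and 70.0 FPKM in the DMSO-labelled libraries and at 25.9, 18.9 and 26.5 FPKM in those labelled AZD. It was the most abundant of the 8 called copies, and the groups did not overlap. Its log2 fold change was −1.36 (with a standard error of 0.18, adjusted p = 0.0176), with an adjusted p of 0.0644 without DMSO replicate 3 and of 0.0834, 0.0653 and 0.0679 without AZD replicates 1, 2 and 3. A less abundant copy of the same locus, Gh_A01G1843, stood at 3.36, 3.70 and 3.55 FPKM for DMSO and 1.58, 1.38 and 1.48 FPKM for AZD (log2 fold change −1.03 with a standard error of 0.12, adjusted p = 0.0129), with 0.0574 without DMSO replicate 3 and 0.0710, 0.0692 and 0.0653 without AZD replicates 1, 2 and 3. A copy on chromosome D01, Gh_D01G2086, overlapped between the groups, at 1.61, 2.64 and 2.82 FPKM for DMSO and 2.41, 1.95 and 1.25 FPKM for AZD (log2 fold change −0.27 at an adjusted p of 0.589).

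PIP2-4 (AT5G60660) is expressed mainly in roots in Arabidopsis. Its copies Gh_A03G0281 and Gh_D03G1822 were both lower. Gh_D03G1822 stood at 25.6, 18.4 and 22.0 FPKM in the DMSO-labelled libraries and at 5.27, 5.07 and 7.03 FPKM in those labelled AZD (log2 fold change −1.84 with a standard error of 0.18, adjusted p = 0.00857). Gh_A03G0281 stood at 12.3, 10.5 and 12.7 FPKM for DMSO and 3.68, 4.26 and 2.32 FPKM for AZD (log2 fold change −1.68 with a standard error of 0.21, adjusted p = 0.0160). The D03 copy was thus the more abundant in each library, and in neither copy did the groups overlap. Gh_D03G1822 missed the threshold without AZD replicate 1 or 2 (adjusted p = 0.0595 and 0.0554), and Gh_A03G0281 without DMSO replicate 3 or AZD replicates 1 or 2 (adjusted p = 0.0694, 0.0832 and 0.0535).

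**Figure D2:**
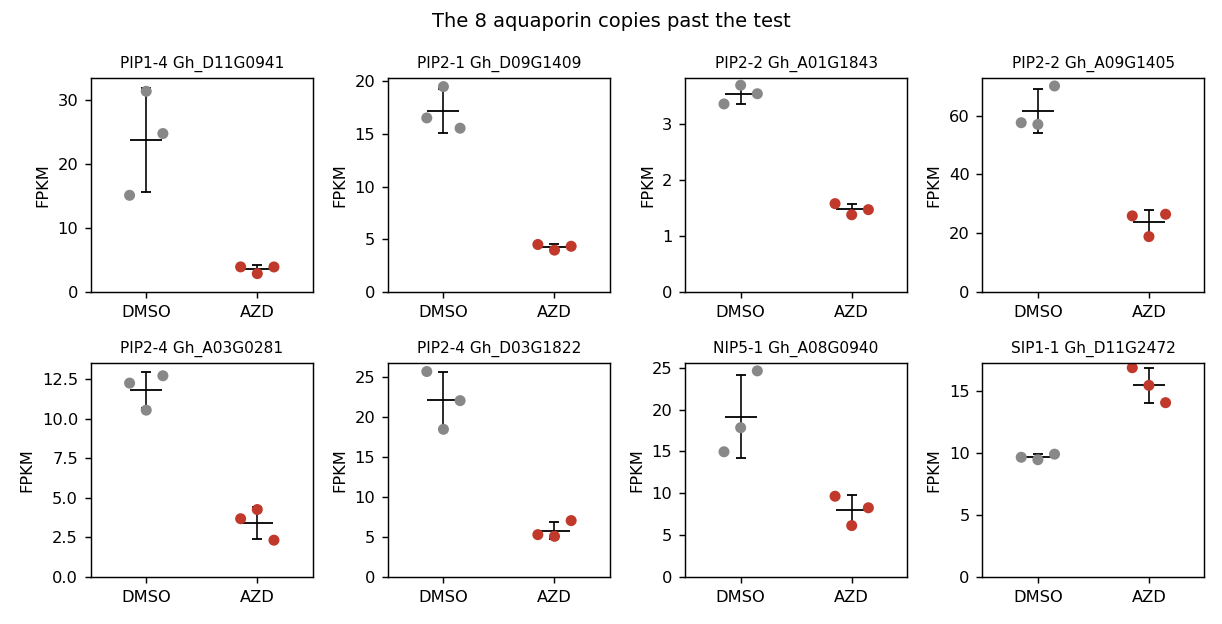
FPKM of the 8 called aquaporin copies in each library, with the mean and SD of each group (n = 3, vertical axes from 0). In 7 panels the 3 AZD-labelled libraries lie under the 3 labelled DMSO, and in SIP1-1 Gh_D11G2472 they lie above them.

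The PIP2-2 copy with the largest fitted fall was not called. Gh_D12G0218 reached 573 and 599.8 FPKM in DMSO replicates 2 and 3 but was listed at 0 in DMSO replicate 1 and in the 3 AZD-labelled libraries. Its presence separated 2 libraries of 1 group from the third, and the log2 fold change of −6.80 had a standard error of 2.68 (adjusted p = 0.196), a size that depends on the 0.5 FPKM added. Without DMSO replicate 1 its adjusted p was 4.65e-05. In the 2 libraries that held it, this copy alone exceeded the sum of the other 11 copies of PIP2-2 (165 and 166 FPKM), and sums over PIP2 are therefore also given without it. Another copy of this locus, Gh_D04G1090, lay just outside the threshold (adjusted p = 0.0501). It was singled out after its values were seen, and stood at 17.2, 24.1 and 23.4 FPKM for DMSO and 11.2, 7.90 and 12.1 FPKM for AZD.

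PIP2-7 is an abundant plasma membrane channel of Arabidopsis, and PIP2-8 is its close relative. None of their 8 tested copies was called (limma, with 1 higher at an unadjusted p under 0.05). The copies of PIP2-7 together held 405, 381 and 606 FPKM in the DMSO-labelled libraries and 502, 522 and 429 FPKM in those labelled AZD, which overlap. The largest rise in the class was Gh_A10G0888 (PIP2-7), at 16.8, 31.5 and 19.4 FPKM for DMSO and 43.8, 39.4 and 37.1 FPKM for AZD. Its groups did not overlap, but with a log2 fold change of 0.86 (standard error 0.24) it was not past the test (adjusted p = 0.0985, and 0.0342 without DMSO replicate 2). Its counterpart Gh_D10G0861 stood at 20.0, 32.1 and 21.4 FPKM for DMSO and 32.3, 30.7 and 30.8 FPKM for AZD (adjusted p = 0.309). Outside the rule for named copies, and chosen after their values were seen, PIP2-8 came mostly from Gh_A01G0019, at 81.5, 87.0 and 97.2 FPKM for DMSO and 112, 98.5 and 95.7 FPKM for AZD, and PIP2-5 from Gh_A10G1843, at 7.06, 10.1 and 14.2 FPKM for DMSO and 9.41, 8.75 and 8.08 FPKM for AZD. Both overlapped between the groups (adjusted p = 0.457 and 0.683).

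PIP1 proteins conduct little water alone and work in complexes with PIP2 proteins. The most abundant, Gh_D08G1970 (PIP1-3), stood at 167, 159 and 288 FPKM in the DMSO-labelled libraries and at 222, 208 and 177 FPKM in those labelled AZD. Its groups overlapped, and the log2 fold change was 0.03 (95% interval −0.61 to 0.67, adjusted p = 0.963). The 1 called copy of the class was Gh_D11G0941 (PIP1-4), at 15.1, 31.4 and 24.8 FPKM for DMSO and 3.96, 2.90 and 3.95 FPKM for AZD. Each of its libraries labelled DMSO was above each labelled AZD by over 3-fold, and the log2 fold change was −2.52 (with a standard error of 0.28, adjusted p = 0.0114). It missed the threshold without DMSO replicate 3 (adjusted p = 0.0566) or without AZD replicate 1, 2 or 3 (adjusted p = 0.0643, 0.0657 and 0.0609).

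The PIP1-4 (AT4G00430) copies differed among themselves. Of 18 tested, 16 had a fold change under 0 (88.9%, beside 50.7% of all tested genes). These 16 include the 6 copies on A10 and D10 described below, which varied together between libraries. In 6 of the 18 the groups did not overlap and stood lower (33.3%, beside 15.5% of all tested genes). In the other direction, Gh_A12G0369 had the largest rise of the class, at 30.03, 32.9 and 23.6 FPKM in the DMSO-labelled libraries and at 51.2, 43.8 and 59.9 FPKM in those labelled AZD. These groups did not overlap either, with a log2 fold change of 0.83 (with a standard error of 0.19, adjusted p = 0.0604). Summed over all 22 copies, PIP1-4 held 593, 595 and 786 FPKM in the DMSO-labelled libraries and 434, 378 and 404 FPKM in those labelled AZD. The sums thus differed without overlap although 1 copy was called. In DMSO replicate 1, 196 of the 593 FPKM came from the 6 copies described next, against 24.7 of 434 FPKM in AZD replicate 1. Without these 6 copies the PIP1-4 sums overlap.

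Within PIP1-4, 6 copies with consecutive IDs on chromosomes A10 (Gh_A10G2089 to Gh_A10G2091) and D10 (Gh_D10G2359 to Gh_D10G2361), chosen after their values were seen, were each highest in DMSO replicate 1 and, within their group, in AZD replicate 3. Together they held 196, 43.9 and 107 FPKM in DMSO replicates 1, 2 and 3, against 24.7, 23.3 and 45.3 FPKM in AZD replicates 1, 2 and 3. In this sum, and in 4 of the 6 copies, DMSO replicate 2 was below AZD replicate 3, and in the other 2 the groups did not overlap. The log2 fold changes ran from −2.33 to −1.35, and none passed the test (adjusted p = 0.0594 to 0.273).

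Copies matched to TIP2-3, an ammonia-permeable channel of Arabidopsis roots, were also highest in DMSO replicate 1. Its 2 copies together held 28.5, 0.239 and 3.45 FPKM in DMSO replicates 1, 2 and 3, against 0.453, 0.487 and 8.32 FPKM in AZD replicates 1, 2 and 3. For Gh_A03G0083, the copy with the largest fall among TIP2, the log2 fold change was −1.06 (with a standard error of 1.25, adjusted p = 0.662), and it was 0.14 without DMSO replicate 1. The copies Gh_A05G0889 and Gh_D05G0972 of PIP2-4, also chosen after their values were seen, held 34.3, 1.10 and 8.29 FPKM and 0.222, 0.160 and 6.22 FPKM in sum (adjusted p = 0.343 and 0.373). In the 2 TIP2-3 copies and in these 2 PIP2-4 copies, each summed, AZD replicate 3 exceeded the other libraries labelled AZD by over 10-fold. Over all 6 copies PIP2-4 held 10.4, 10.4 and 17.6 FPKM in those libraries, and its called copy Gh_A03G0281 was lowest in AZD replicate 3. The 1 tested copy of TIP2-2, Gh_A08G1523, likewise chosen after its values were seen, had 1.66 and 0.629 FPKM in DMSO replicates 1 and 3, with 2.13 FPKM in AZD replicate 3, and was listed at 0 in the other 3 libraries. Of all 77 tested aquaporin copies, 16, 11 and 28 were highest in DMSO replicates 1, 2 and 3. In AZD replicates 1, 2 and 3 these counts were 6, 9 and 7. The same count was not made over all tested genes, so these numbers have no background to be read against.

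Gh_A03G0325, a copy of TIP1-3 with the largest fall among TIP1, stood at 6.47, 0.314 and 0.373 FPKM in the DMSO-labelled libraries. It was listed at 0 in AZD replicate 1 and stood at 0.0964 and 0.964 FPKM in AZD replicates 2 and 3 (log2 fold change −1.17 at an adjusted p of 0.497). The 7 copies of TIP1-3, a vacuolar channel of pollen in Arabidopsis, summed to 20.5, 13.3 and 13.3 FPKM and to 7.44, 9.06 and 12.2 FPKM without overlap, and none was called (adjusted p of at least 0.225). CASP1 to CASP5, which build the Casparian strip of the root endodermis, held 3.36, 0.420 and 0.749 FPKM in the DMSO-labelled libraries and 0.477, 0.510 and 0.492 FPKM in those labelled AZD, summed over 20 copies. Among them, CASP2 was highest in AZD replicate 3 (0.247 FPKM, against 0.130 FPKM in DMSO replicate 1). CASP4 was listed at 0 in all of its copies in DMSO replicates 2 and 3 and AZD replicates 1 and 2, and CASP5, WOX5 and PLT1, markers of the endodermis and the root tip, in all libraries but DMSO replicate 1. Of the other root markers, summed over copies, PHO1, RHD6, PLT2, NRT2.1 and MYB36 were also highest in DMSO replicate 1. EXPA7, SCR, SHR and SKOR were not. The copies of EXPA7, a root hair expansin, were listed at 0 in DMSO replicate 1 and summed to 0.146 and 0.173 FPKM in DMSO replicates 2 and 3 and to 0.584, 0.449 and 1.06 FPKM in the AZD-labelled libraries. SCR was highest in AZD replicate 2 and SHR in DMSO replicate 3. The sum of all 92 root marker copies was higher in DMSO replicate 3 (61.2 FPKM) than in DMSO replicate 1 (57.7 FPKM). Of these sums, SCR and SHR held 13.6 and 20.5 FPKM in DMSO replicate 3, and 10.5 and 8.45 FPKM in DMSO replicate 1. Without SCR and SHR the sum was highest in DMSO replicate 1.

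Of 19 tested root marker copies, 1 was lower (5.26%, beside 2.8% of all tested genes), Gh_A08G1778 of the nitrate transporter NRT2.1, and none was higher (limma, with none higher and 7 lower at an unadjusted p under 0.05). In 8 the groups did not overlap and stood lower (42.1%, beside 15.5%). Summed over copies, NRT2.1 held 22.3, 3.90 and 14.9 FPKM for DMSO and 0.176, 0.378 and 0.683 FPKM for AZD, and MYB36, a regulator of the endodermis, 6.68, 3.03 and 6.01 FPKM for DMSO and 2.47, 1.94 and 2.42 FPKM for AZD. Whether root RNA had a part in the values of these aquaporins was not tested.

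**Figure D3:**
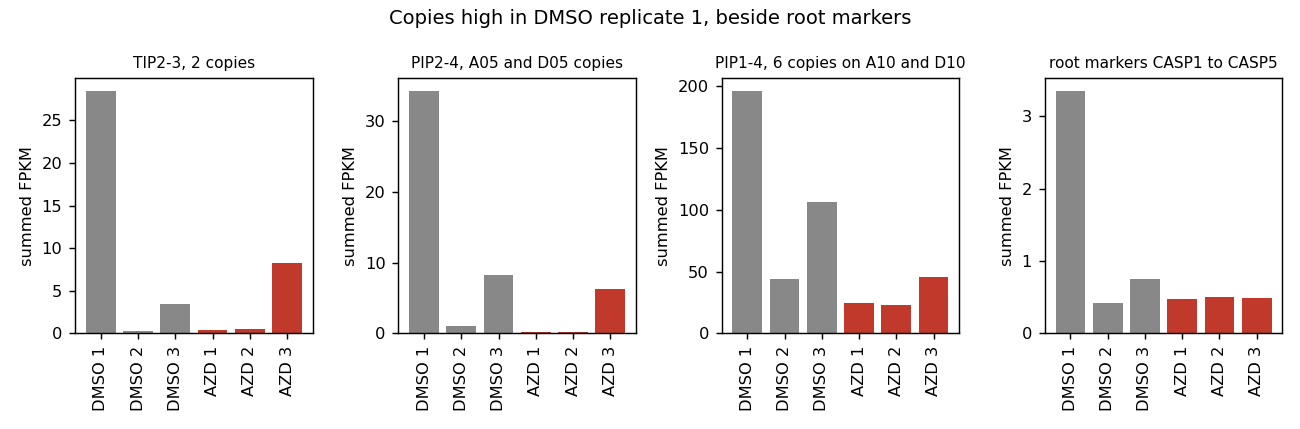
Summed FPKM in each library of the 2 TIP2-3 copies, the A05 and D05 copies of PIP2-4, the 6 PIP1-4 copies on A10 and D10, and the root markers CASP1 to CASP5 (bars, axes from 0, grey for DMSO and red for AZD). These 4 sums, chosen after their values were seen, are highest in DMSO replicate 1. The sum of all root markers is highest in DMSO replicate 3, but not without SCR and SHR. The 3 aquaporin sums are highest in AZD replicate 3 among the AZD-labelled libraries. Of the 77 tested aquaporin copies, 16 were highest in DMSO replicate 1 and 28 in DMSO replicate 3, a count not made over all tested genes.

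TIP1 and TIP2 channels were the most abundant tonoplast aquaporins and were not past the test. TIP1-1 (AT2G36830), the main water channel of the vacuole in vegetative tissue, had in Gh_D04G1049 the highest mean over the 6 libraries of all 117 copies, at 372, 312 and 428 FPKM in the DMSO-labelled libraries and 455, 593 and 350 FPKM in those labelled AZD. Its groups overlapped, with a log2 fold change of 0.31 (95% interval −0.30 to 0.92, adjusted p = 0.521). Its counterpart Gh_A04G1393 stood at 145, 155 and 199 FPKM for DMSO and 230, 276 and 158 FPKM for AZD (log2 fold change 0.39 at an adjusted p of 0.420). The order of the AZD-labelled libraries was the same in both copies, with replicate 2 highest and replicate 3 lowest.

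Gh_A01G1820, the TIP1-1 copy with the largest rise of its class, stood at 51.2, 48.5 and 142 FPKM for DMSO and 104, 168 and 67.8 FPKM for AZD (log2 fold change 0.58 at an adjusted p of 0.547), and its counterpart Gh_D01G2058 at 44.1, 47.0 and 85.2 FPKM for DMSO and 80.1, 125 and 57.3 FPKM for AZD (log2 fold change 0.56 at an adjusted p of 0.414). In both, DMSO replicate 3 exceeded the lowest libraries labelled AZD. TIP2-1, which passes water and ammonia in Arabidopsis, was led by Gh_D03G0583, at 153, 63.3 and 244 FPKM for DMSO and 194, 264 and 120 FPKM for AZD (log2 fold change 0.46 at an adjusted p of 0.657). Without DMSO replicate 2 that value was −0.08, so that its sign rested on this library. TIP4-1, a channel of Arabidopsis roots, was present mostly as Gh_D06G0982, at 29.2, 20.3 and 88.1 FPKM for DMSO and 44.1, 92.7 and 36.6 FPKM for AZD (log2 fold change 0.50 at an adjusted p of 0.669), while its counterpart Gh_A06G0845 did not pass the filter.

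The libraries differed widely within groups at these tonoplast loci. In Gh_A01G1820, Gh_D03G0583 and Gh_D06G0982 the highest library labelled DMSO was replicate 3 and the highest labelled AZD was replicate 2. TIP3-2, a channel of the storage vacuoles of seeds, was near the limit of the filter, with 1 of 4 copies tested and sums of 0.801, 1.29 and 0.642 FPKM in the DMSO-labelled libraries and 1.32, 1.92 and 0.858 FPKM in those labelled AZD. None of 9 tested copies of the seed marker list was called (limma, with 2 lower at an unadjusted p under 0.05).

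NIP5-1 (AT4G10380) imports boric acid into Arabidopsis roots under low boron. Its copies were the most abundant NIP channels among the 32 loci, and both stood lower in every library labelled AZD. Gh_A08G0940 stood at 15.0, 17.8 and 24.6 FPKM in the DMSO-labelled libraries and at 9.64, 6.13 and 8.26 FPKM in those labelled AZD (log2 fold change −1.20 with a standard error of 0.24, adjusted p = 0.0461). It passed without DMSO replicate 1 (adjusted p = 0.0371) but not without DMSO replicates 2 or 3 (0.0995 and 0.113) or AZD replicates 1, 2 or 3 (0.128, 0.142 and 0.137). Gh_D08G1149 stood at 14.7, 7.77 and 15.1 FPKM for DMSO and 4.61, 5.06 and 5.62 FPKM for AZD (log2 fold change −1.16, standard error 0.26), just outside the threshold (adjusted p = 0.0615, and 0.0198 without DMSO replicate 2).

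NIP1-2 was the other NIP locus with 2 tested copies, and its copies pointed opposite ways without passing the test. Gh_D10G0313 stood at 5.49, 4.40 and 3.15 FPKM for DMSO and 6.41, 4.50 and 8.31 FPKM for AZD (log2 fold change 0.50 at an adjusted p of 0.318). Gh_A10G0307 stood at 2.98, 3.25 and 3.31 FPKM for DMSO and 2.63, 1.58 and 3.17 FPKM for AZD (log2 fold change −0.35 at an adjusted p of 0.399). NIP6-1, which moves boric acid into young leaves of Arabidopsis, held 8.41, 7.14 and 8.48 FPKM and 5.90, 4.79 and 7.43 FPKM over 3 copies, which overlap.

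SIP1-1 (AT3G04090) is a water channel of the endoplasmic reticulum in Arabidopsis, and its copy Gh_D11G2472 was the called aquaporin that was higher in the AZD-labelled libraries. It stood at 9.67, 9.47 and 9.92 FPKM for DMSO and 16.9, 15.5 and 14.1 FPKM for AZD (log2 fold change 0.65 with a standard error of 0.12, adjusted p = 0.0381). It passed without DMSO replicate 1 (adjusted p = 0.0448) but not without DMSO replicates 2 or 3 (0.0850 and 0.101) or AZD replicates 1, 2 or 3 (0.155, 0.133 and 0.0942). The most abundant copy, Gh_A13G1436, overlapped between the groups, at 27.7, 32.8 and 28.8 FPKM for DMSO and 29.7, 26.9 and 24.9 FPKM for AZD (log2 fold change −0.13, 95% interval −0.45 to 0.19, adjusted p = 0.611). Gh_A10G1656 had the largest fall, at 7.89, 19.7 and 22.7 FPKM for DMSO and 6.43, 8.23 and 8.04 FPKM for AZD (log2 fold change −0.98 at an adjusted p of 0.196). There DMSO replicate 1 lay within the range of the AZD-labelled libraries, and without it the adjusted p was 0.0135. SIP2-1 had 2 tested copies, and summed to 6.43, 3.46 and 3.42 FPKM and to 5.24, 3.07 and 4.24 FPKM, which overlap.

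**Figure D4:**
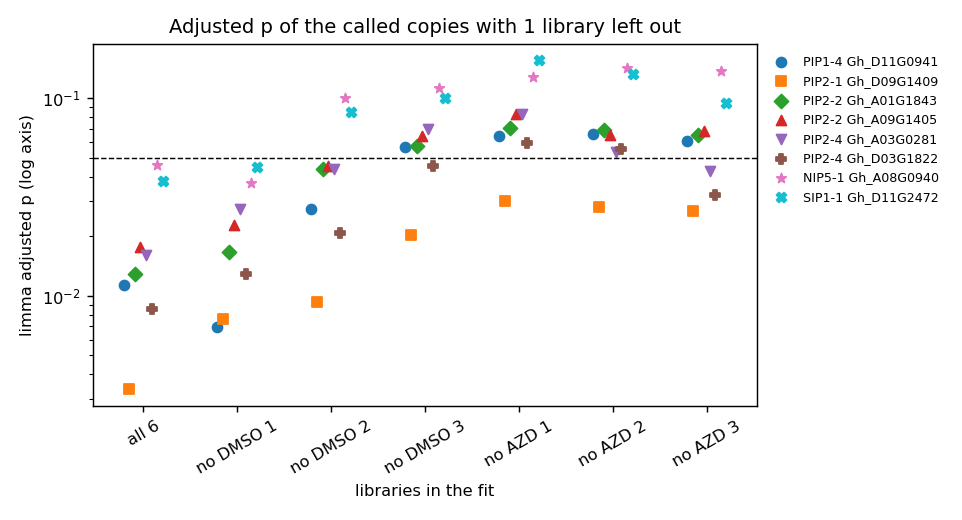
Adjusted p from limma (log axis) of each called copy with all 6 libraries and with each library left out, with the threshold of 0.05 as a dashed line. PIP2-1 Gh_D09G1409 lies under the line in all 7 fits, while NIP5-1 Gh_A08G0940 and SIP1-1 Gh_D11G2472 do so with all libraries and without DMSO replicate 1.

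Summed per class over the 32 listed loci, PIP1 and NIP stood lower in the AZD-labelled libraries and the other classes overlapped. PIP1 held 760, 754 and 1075 FPKM in the DMSO-labelled libraries and 656, 586 and 581 FPKM in those labelled AZD, without overlap. The PIP1 sums overlap once the 6 PIP1-4 copies on A10 and D10 are left out. Without Gh_D12G0218, PIP2 held 718, 700 and 955 FPKM and 742, 725 and 657 FPKM, which overlap. With it, PIP2 held 718, 1273 and 1555 FPKM and 742, 725 and 657 FPKM, which overlap through DMSO replicate 1. TIP1 held 638, 576 and 870 FPKM and 878, 1171 and 648 FPKM, which overlap as well. The sums of NIP, 47.1, 41.9 and 55.5 FPKM for DMSO and 30.2, 22.7 and 34.3 FPKM for AZD, did not overlap. Of these, the NIP5-1 copies held 29.7, 25.6 and 39.7 FPKM for DMSO and 14.3, 11.2 and 13.9 FPKM for AZD. The other listed NIP copies overlap in sum. With the copies of NIP4-2, a locus outside the list, the NIP sums overlap.

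As shares of all aquaporin FPKM without Gh_D12G0218, PIP1 took 30.4% to 33.0% in the DMSO-labelled libraries and 19.3% to 26.2% in those labelled AZD. These PIP1 shares overlap once the 6 PIP1-4 copies on A10 and D10 are left out. TIP1 took 25.0% to 25.5% and 29.2% to 38.6%. With that copy included, PIP1 took 26.4% to 30.4% and 19.3% to 26.2%, and TIP1 20.1% to 25.5% and 29.2% to 38.6%. The shares of a library add to a whole, so that a rise in 1 class lowers the others. The total without that copy, 2500, 2288 and 3473 FPKM for DMSO and 2704, 3031 and 2220 FPKM for AZD, overlapped between the groups. The D subgenome supplied 55.7% to 60.9% of it in the DMSO-labelled libraries and 59.2% to 62.3% in those labelled AZD.

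**Figure D5:**
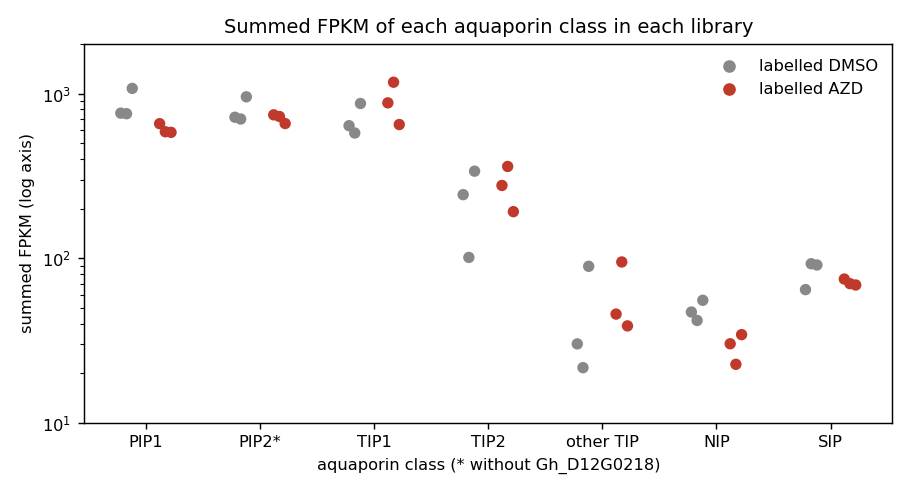
Summed FPKM of each aquaporin class in each library (log axis, grey for DMSO and red for AZD, PIP2 without Gh_D12G0218). The groups do not overlap for PIP1, where libraries labelled AZD lie between 581 and 656 FPKM, or for NIP, and they overlap for the other classes. The PIP1 sums overlap without the 6 PIP1-4 copies on A10 and D10, and the NIP sums overlap without NIP5-1.

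The most abundant copies were not among those called. The 10 most abundant copies without Gh_D12G0218, at means of 96.9 to 418 FPKM over the 6 libraries, supplied 59.5% to 70.9% of the aquaporin FPKM of a library. Their log2 fold changes ran from −0.76 to 0.58 around a median of 0.17, and none was called (limma, with an adjusted p of at least 0.127). Without DMSO replicate 1, Gh_A03G0138 (PIP1-4) among them, outside the rule for named copies and chosen after its values were seen, was called lower. The 10 copies belong to TIP1-1, PIP1-3, PIP2-7, TIP2-1 and PIP1-4. The called copies stood at group means of 1.48 to 61.5 FPKM.

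Other genes of water and boron transport were read from a list of 4 kinds: proton pumps of the plasma membrane and of the tonoplast, boron exporters, and proteins that move or modify aquaporins. Of 121 tested copies, 3 were lower (2.48%, beside 2.8% of all tested genes) and none was higher (limma, with 10 higher at an unadjusted p under 0.05). The 3 copies belong to the last kind. They are 2 copies of OST1, a kinase of abscisic acid signalling that phosphorylates PIP2-1 in Arabidopsis, and a copy of RMA1, a ubiquitin ligase of the endoplasmic reticulum whose pepper relative acts on a PIP2 channel. OST1 Gh_D11G0552 stood at 2.64, 6.18 and 3.24 FPKM for DMSO and 0.296, 0.386 and 0.232 FPKM for AZD (log2 fold change −2.42 at an adjusted p of 0.0150). The list had 10 lower and 3 higher copies without DMSO replicate 1, 3 lower without DMSO replicate 2, and none called without DMSO replicate 3 or any 1 library labelled AZD (limma, with 4 to 12 higher and 13 to 21 lower at an unadjusted p under 0.05). Of all 43158 tested genes, 1589 were lower and 1814 higher without DMSO replicate 1, and 692 and 279 without DMSO replicate 2. In the fits without DMSO replicate 3 or a library labelled AZD, 145 to 267 were lower and 44 to 138 higher.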

How the data were processed

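Seedling RNA was sequenced by the authors on a HiSeq instrument (100 bp paired-end reads, with the library kit named differently in the labels and the methods), and processed with TopHat2, Cufflinks and Cuffdiff. For their versions, and for the build of the genome, nothing is stated in the sources used here. The authors deposited FPKM for 70478 genes in 6 columns, all of which were used. The study gives the reads of each library. Fragment counts per gene are not part of the table, so the fragments behind a value are unknown and no count model was fitted.

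Values were tested with limma 3.58.1 (R 4.3.3, trended variance) on log2(FPKM + 0.5), keeping genes that averaged 0.5 FPKM or more, adjusted over all 43158 genes. An exact permutation test of 3 against 3 libraries cannot go below p = 0.1 and was not used. P-values set the difference between the groups against the spread of these libraries within groups, moderated over all tested genes. The method was tested on simulated data with noise drawn separately for each gene and library. That simulation held no difference shared by the genes of a library, so it cannot tell how such differences act on the calls here. The named copies are those called and, per class, the most abundant copy, the largest rise and the largest fall, with their counterparts. Copies outside this rule are given as chosen after their values were seen. Members and gene lists were chosen with earlier results of these data known. The alternatives are other pseudocounts, filters and scalings, no trend, a replicate block and leaving out each library. The RefSeq table at hand held 0 of the gene IDs, and no sequence or coordinate is given.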

Additional observations from a re-analysis of the deposited data

How the results depend on the processing

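The 7 lower and 1 higher aquaporin copies stayed within 1.5 times under both other pseudocounts, a minimum mean of 1 FPKM and median-of-ratios scaling. Without a filter on low values, 3 aquaporin copies were lower, all 3 PIP2, as were 0 of the partner genes (limma, with 24 at an unadjusted p under 0.05) and 463 genes of all, while 274 were higher. Quantile normalization gave 2 higher aquaporin copies, and limma without the trend gave 0 (5 at an unadjusted p under 0.05). Partner genes had 1 higher copy under quantile normalization and 1 with a minimum mean of 1 FPKM. The cause was not tested. Median log2 fold changes without the filter were −0.12 over all aquaporins, −0.24 for PIP1, −0.31 for PIP2, −0.024 for NIP and 0.00 for SIP, and with a pseudocount of 0.1 they were −0.81 for PIP2 and −0.38 for TIP1. With quantile normalization the log2 fold change of PIP1-3 Gh_D08G1970 was −0.13, against 0.03.

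Leaving out each library in turn gave 1 to 14 lower and 0 to 1 higher aquaporin copies (limma, with at least 4 higher at an unadjusted p under 0.05), 1 to 8 lower PIP2 copies, 0 to 10 lower and 0 to 3 higher partner copies, and 145 to 1589 lower and 44 to 1814 higher genes of all. The highest of these counts came without DMSO replicate 1. Medians ran from −0.79 to −0.39 for PIP2, from −0.29 to 0.17 for TIP1, and from −0.53 to −0.12 for NIP. The log2 fold change ran from −0.12 to 0.30 for PIP1-3 Gh_D08G1970, from −0.075 to 0.89 for TIP2-1 Gh_D03G0583 and from −2.18 to 0.14 for TIP2-3 Gh_A03G0083.

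Replicate numbers are shared between the groups, but same-numbered libraries did not deviate together (r = 0.0182, −0.0421 and −0.0880 over genes). With 3 libraries per group, these values cannot show whether same-numbered libraries were prepared together. With the replicate block, 0 aquaporin copies, 0 PIP2 copies and 0 partner genes were lower or higher (limma, with 22 lower and 4 higher aquaporins and 20 lower and 5 higher partner copies at an unadjusted p under 0.05), and 58 genes of all were lower and 14 higher.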

Other observations

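A pair of aquaporin loci outside the list of 32 had copies in the table. NIP4-2, a channel of pollen in Arabidopsis, was found in Gh_A11G3043 at 13.8, 3.53 and 8.24 FPKM in the DMSO-labelled libraries against 15.4, 17.1 and 13.0 FPKM in those labelled AZD (limma, log2 fold change 0.97, adjusted p = 0.249). Its other copy, Gh_D11G0733, stood at 8.84, 2.02 and 3.18 FPKM for DMSO and 10.2, 9.47 and 8.76 FPKM for AZD (limma, log2 fold change 1.17, adjusted p = 0.192). The groups overlapped in both through DMSO replicate 1. SIP1-2 Gh_D10G1912 stood at 7.89, 11.3 and 13.4 FPKM for DMSO and 7.76, 7.82 and 7.21 FPKM for AZD, without overlap but not past the test (limma, log2 fold change −0.46, adjusted p = 0.230).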
